A study of Mus musculus with 9 samples.

Results

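The 47 genes described here act in DNA damage signalling and repair, and they were taken as a named list and matched by gene symbol to the 53379 Ensembl identifiers counted in each library. All 47 matched, and all 47 were among the 19572 genes that passed the filter on low counts. The cells came from forebrains of C57Bl6DBa2 mouse embryos, which had received plasmids by in utero electroporation at E14.5, and GFP-positive cells were collected by flow cytometry 2 days later, at E16.5. The control group carried H2B-GFP, a fluorescent histone reporter, without either factor. The second group carried pCAGGS-GemC1, and the third carried the plasmid that the labels spell pCAAGS-Mcidas. Whether the groups with a factor also received H2B-GFP, or a GFP on the factor plasmid, is not stated in the labels. Each group held 3 libraries of bulk RNA. Vectors of the pCAGGS type express their insert from a broadly active promoter, so the factor was added from a plasmid. The labels do not say how many embryos or litters went into a library, and p-values therefore measure only the spread between these libraries. GemC1 and Mcidas are relatives of geminin, a regulator of DNA replication, and both start the programme of multiciliated cells. The series' title ties p53 and p21 to DNA damage in developing ependymal cells, which are the ciliated cells of the brain ventricles.

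Cells read DNA damage in steps. The kinases ATM, ATR and DNA-PK are activated at broken or unreplicated DNA, mark the neighbouring histone H2AX, and pass the signal to the checkpoint kinases CHEK1 and CHEK2 and to p53, whose target Cdkn1a codes for the cell cycle inhibitor p21. Mediators such as MDC1, RNF8, RNF168 and 53BP1 gather on the marked chromatin, and the break is then rejoined by homologous recombination, which needs a sister chromatid, or by end joining, which does not. In the embryonic forebrain many of these genes serve cycling progenitors, which meet breaks and stalled forks as they replicate. Much of this signalling runs through phosphorylation and protein recruitment, which transcript counts do not measure.

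The plasmid genes followed the labels. Gmnc, the gene of GemC1, had no count in any GFP library and 277 ± 48.6 CPM (SD, n = 3) in the GemC1 group and 0.173 ± 0.15 CPM in the Mcidas group, where CPM stands for the counts of a library put on a common scale with TMM factors. Mcidas had 0.666 ± 0.0217 CPM in GFP, 70.03 ± 8.67 CPM in GemC1 and 497 ± 105 CPM in Mcidas. Library totals ran from 22914704 to 41163917 counts, and the 47 genes took between 0.2522% and 0.3006% of them. A single one of these genes had between 49 and 20025 counts in a library. Markers of radial glia (Sox2, Pax6, Nes) and of neurons (Tubb3, Dcx) were present in every library, so the sorted cells, which the labels call neural progenitors, also held neuronal RNA. In bulk RNA, fewer cells of a type and less RNA per cell cannot be told apart.

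Of the 47 genes, 2 rose and none fell in either comparison with the GFP group. Lig1, the replicative DNA ligase that joins Okazaki fragments and also seals repaired single strands, rose 1.43-fold with GemC1 and 1.99-fold with Mcidas. H2afx, which codes for the histone variant H2AX, rose 1.48-fold with GemC1 and 1.46-fold with Mcidas. The other 45 genes did not pass the threshold in either comparison (edgeR quasi-likelihood test, Benjamini-Hochberg adjusted p under 0.05 over all genes tested). Over all genes tested, 3.86% were called higher and 1.32% lower with GemC1, and 4.03% higher and 0.327% lower with Mcidas, so that 2 of 47 called higher lies near the share of all genes. In either direction the shares of all genes were 5.19% with GemC1 and 4.35% with Mcidas. At an unadjusted p under 0.05 the genes numbered 6 higher and 1 lower with GemC1, against 19.5% of all genes in either direction, and 5 higher and 1 lower with Mcidas, against 12.6% of all genes. DESeq2 called no gene of the list lower in either comparison, and with GemC1 it called Rnf168 and Xrcc1 higher beside Lig1 and H2afx. Both comparisons use the same 3 GFP libraries, so the 2 sets of values below are not independent of each other.

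The median log2 fold change over the 47 genes was 0.03 with GemC1 and 0.02 with Mcidas, beside medians of -0.00 and -0.03 over all genes tested. With GemC1, 29 of the 47 values were above 0, and with Mcidas 28 were. Precision was enough to bound most of them. The 95% interval of the fold change lay within 1.5-fold in both directions for 35 of the 47 genes with GemC1 (74.5%, against 45% of all genes tested) and for 37 with Mcidas (78.7%, against 48.5%). These shares are not particular to the 47 genes. In the further list of repair genes described below they were 81.8% with GemC1 and 72.7% with Mcidas. The median standard error was 0.134 for the 47 genes and 0.184 for all genes tested, in both comparisons. For the remaining genes a change of more than 1.5-fold lay inside the interval at this depth and number of libraries. A gene with no call is therefore described by its interval, and the absence of a call does not show that the level stayed the same.

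**Figure D1:**
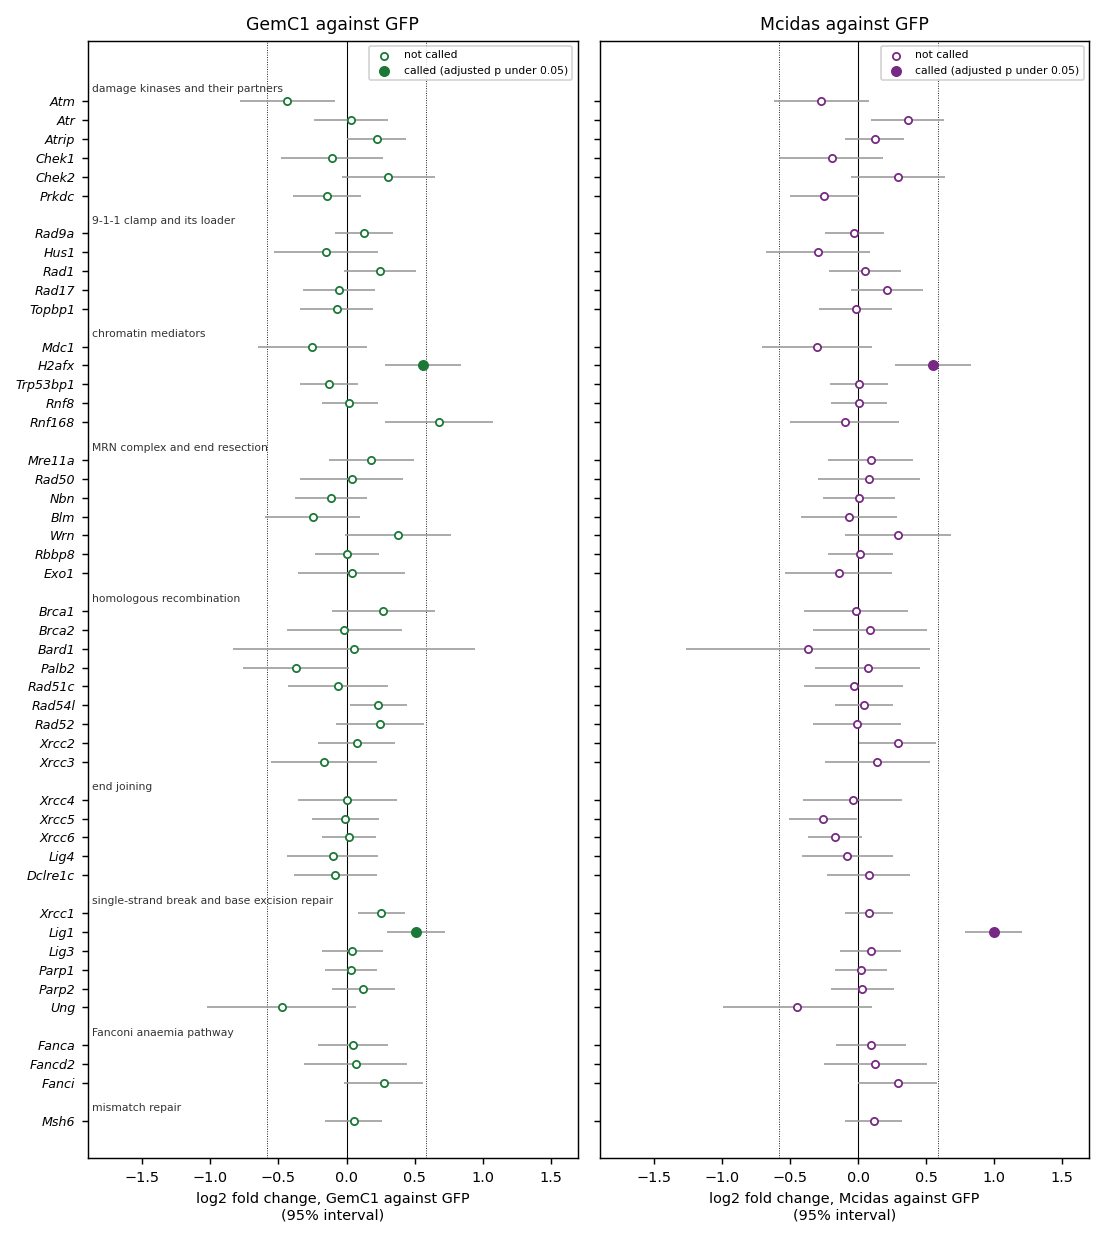
Log2 fold change against GFP (horizontal axis) for each of the 47 genes, grouped by role, with GemC1 on the left and Mcidas on the right. Points are edgeR estimates, horizontal lines are 95% intervals, filled points passed the adjusted p threshold, and dotted lines mark 1.5-fold. Lig1 and H2afx are the filled points in both panels, and the widest intervals belong to Bard1 and Ung.

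Lig1 lies at chromosome 7, 13277283 to 13311433, plus strand (GRCm38, GENCODE M21). Its level was 73.8, 63.3 and 56.8 CPM in the GFP libraries, 87.8, 96 and 92.7 in the GemC1 libraries and 134, 128 and 125 in the Mcidas libraries. The lowest GemC1 library stood above the highest GFP library, and the lowest Mcidas library stood above the highest GemC1 library, so the 3 groups did not overlap. The log2 difference from GFP was 0.51 (SE 0.10) with GemC1 (edgeR adjusted p = 0.00865) and 0.996 (SE 0.10) with Mcidas (edgeR adjusted p = 3.83e-05). Lig1 passed the threshold in both comparisons under each of the 16 alternatives, with log2 values from 0.43 to 0.62 with GemC1 and from 0.92 to 1.11 with Mcidas. The direct difference of GemC1 from Mcidas was -0.48 (SE 0.10) with an adjusted p of 0.118 in edgeR, and it passed the threshold in DESeq2 (-0.49, adjusted p = 0.00111) and without the low-count filter (-0.49, adjusted p = 0.00506). An opposite-strand gene, Zswim9, shares 5.79% of the exon bases of Lig1, and the strand is not marked in these libraries. Zswim9 was at 18.9, 24.1 and 20.5 CPM in GFP, 19.7, 17.3 and 23.7 in GemC1 and 22.2, 22 and 23.9 in Mcidas, and its groups overlapped. The part of the shared stretch in the values of Lig1 was not tested.

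E2F factors drive many genes of DNA replication, and the window around a start site (250 bases before to 50 after, RefSeq, GRCm38.p6) was therefore searched for E2F letters. The letters were TTTCCCGC, TTTGGCGC, TTTCGCGC and TTTGCCGC on both strands. Windows were given for 37 of the 47 genes, 43 windows in all, and 10 of them (23.3%) held a match, against 744 of all 32851 windows (2.26%), 9 of 124 windows of other repair genes (7.26%) and 16 of 36 windows of S phase genes (44.4%). Median GC content was 60% in the windows of the 47 genes and 52.7% in all windows. The 9 genes with a match were Lig1, Chek2, Topbp1, Mdc1, Brca2, Bard1, Rad51c, Xrcc6 and Msh6. The window of Lig1 that held the match and the windows of Chek2, Topbp1 and Msh6 are shown because they carry the same kind of letters in genes of different roles, of which Lig1 alone passed the threshold. These 4 were chosen after their values were seen. Capitals mark the E2F letters and CCAAT, the letters bound by the factor NF-Y, as read on either strand, and no 2 matches overlap.
Lig1 (chr7:13278576-13278875, plus strand): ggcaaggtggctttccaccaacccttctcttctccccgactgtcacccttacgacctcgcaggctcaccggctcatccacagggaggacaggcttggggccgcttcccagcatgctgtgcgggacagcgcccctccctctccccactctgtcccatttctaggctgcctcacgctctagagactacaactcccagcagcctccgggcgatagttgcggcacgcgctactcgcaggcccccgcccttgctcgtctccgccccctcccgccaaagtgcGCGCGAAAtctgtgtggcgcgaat
Chek2 (chr5:110839733-110840032, plus strand): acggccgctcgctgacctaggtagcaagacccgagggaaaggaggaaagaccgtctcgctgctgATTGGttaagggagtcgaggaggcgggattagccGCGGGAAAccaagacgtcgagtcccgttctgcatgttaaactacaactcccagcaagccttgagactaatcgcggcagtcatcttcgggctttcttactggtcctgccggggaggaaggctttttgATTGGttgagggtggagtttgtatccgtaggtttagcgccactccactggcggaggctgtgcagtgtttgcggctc
Topbp1 (chr9:103305077-103305376, plus strand): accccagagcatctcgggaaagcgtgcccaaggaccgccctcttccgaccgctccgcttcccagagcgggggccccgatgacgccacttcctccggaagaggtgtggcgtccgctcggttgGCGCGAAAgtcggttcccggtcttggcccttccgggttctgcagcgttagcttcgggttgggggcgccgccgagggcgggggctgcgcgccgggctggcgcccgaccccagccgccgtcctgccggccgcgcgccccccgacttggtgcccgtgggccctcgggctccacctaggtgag
Msh6 (chr17:87974800-87975099, plus strand): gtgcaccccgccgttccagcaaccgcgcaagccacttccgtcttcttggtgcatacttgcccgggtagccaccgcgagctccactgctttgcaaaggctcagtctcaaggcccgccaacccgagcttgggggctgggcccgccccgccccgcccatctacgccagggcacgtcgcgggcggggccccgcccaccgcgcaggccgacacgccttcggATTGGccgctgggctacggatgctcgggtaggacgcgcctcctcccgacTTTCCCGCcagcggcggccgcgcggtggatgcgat
In Lig1 the match is TTTCGCGC on the reverse strand and begins 27 bases after the start site, and the windows at the other 2 RefSeq starts of Lig1 held none. Topbp1 has the same letters, also on the reverse strand, 129 bases before its start. Chek2 has TTTCCCGC on the reverse strand 152 bases before its start, and Msh6 has TTTCCCGC on the forward strand 16 bases after its start. The median log2 fold change of the 9 genes with a match was 0.02 with GemC1 and -0.02 with Mcidas, and that of the 28 genes without a match was 0.03 with GemC1 and 0.03 with Mcidas. CCAAT stood in 41.9% of the windows of the 47 genes and in 37.4% of all windows. GTTGCC, letters of the X-box that RFX factors of ciliated cells bind, stood in 11.6% and 12.5%. No window was given for H2afx.

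Levels between genes were compared per kilobase of exon, with all annotated exons of a gene merged (GENCODE M21). This length is 1384 bases for H2afx and 5659 for Bard1, and the order of genes depends on it. In the GFP group H2afx was highest, at 109 ± 12.1 CPM per kb (SD, n = 3), followed by Parp1, the sensor of single-strand breaks that builds poly(ADP-ribose), at 63.6 ± 0.658 CPM per kb. Trp53bp1 came next at 33.6 ± 2.61 CPM per kb, then Msh6 at 26.5 ± 1.32 and Rad9a at 25 ± 1.31 CPM per kb. The spreads of this last pair met. Next were Xrcc5 at 21.7 ± 2 and Lig3 at 19.6 ± 1.04 CPM per kb, a pair whose spreads also meet. Of the 47 genes, 23 share exon bases with another gene. The share is largest in Lig3, at 25.07% (Rffl, opposite strand). It is 15.36% in Rad54l, 15.04% in Trp53bp1, 13.18% in Rnf8 and 9.53% in Rad9a. The part of these shared stretches in the levels was not tested. Bard1, the partner of BRCA1, was lowest at 0.684 ± 0.3 CPM per kb, below Palb2 at 1.51 ± 0.307, Wrn at 1.69 ± 0.169 and Ung at 1.8 ± 0.533 CPM per kb. These last 3 could not be ordered by their spread. In CPM, 44 of the 47 genes had a GFP mean of at least 10, and the 3 below it were Bard1, Rad51c and Ung. Lig1 was at 15.1 ± 2.01 CPM per kb in GFP, 21.6 ± 0.958 in GemC1 and 30.2 ± 1.09 in Mcidas.

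**Figure D2:**
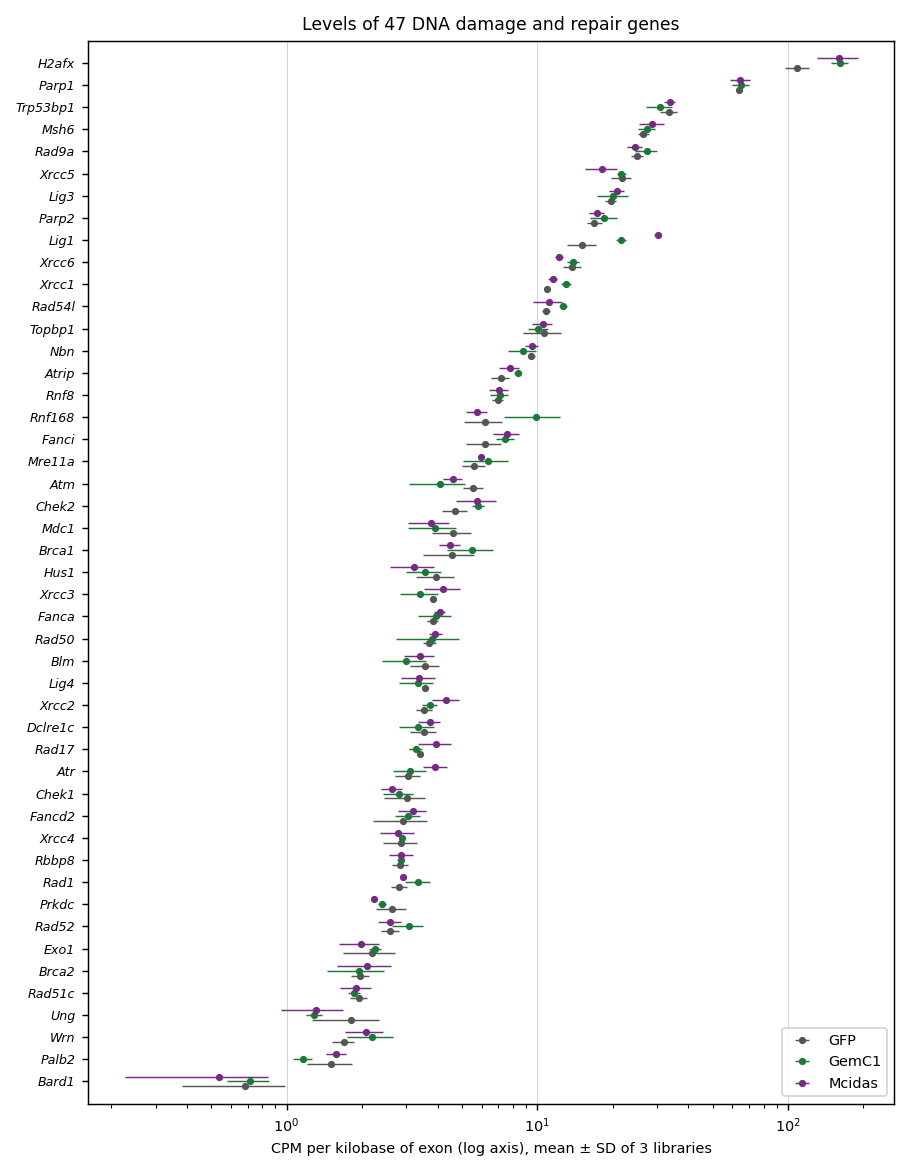
Level of each of the 47 genes in CPM per kilobase of exon (horizontal log axis), ordered by the GFP mean, with 1 point per group and lines for the SD of 3 libraries. Levels span from below 1 CPM per kb for Bard1 to above 100 for H2afx, and for most genes the 3 groups lie on top of each other.

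The damage kinases and their partners held 6 genes, and none passed the threshold with GemC1 or Mcidas (edgeR; at an unadjusted p under 0.05, 1 higher and 1 lower with GemC1 and 1 higher with Mcidas). Atm, the kinase that answers double-strand breaks, was at 54.8, 63.5 and 54.1 CPM in the GFP libraries, 50.1, 30.2 and 47.1 in the GemC1 libraries and 45.9, 52.1 and 44.7 in the Mcidas libraries. Every GemC1 and every Mcidas library lay below the lowest GFP library, and GemC1 replicate 2 was the lowest of all. The log2 difference was -0.43 (SE 0.16) with GemC1 (edgeR adjusted p = 0.153) and -0.27 (SE 0.16) with Mcidas (edgeR adjusted p = 0.574). Groups that did not overlap, with the factor lower, were found for 11.7% of all genes with GemC1 and for 8.87% with Mcidas, and among the 47 genes for 2 in each comparison, Atm and Palb2 with GemC1 and Atm and Xrcc6 with Mcidas. Groups that did not overlap with the factor higher were found for 9 of the 47 genes with GemC1, against 13.2% of all genes, and for 3 with Mcidas, against 10.7%. Atr, the kinase of stalled forks and single-stranded DNA, was at 66.6, 81.4 and 68 CPM in the GFP libraries, 69, 65.7 and 86.5 in the GemC1 libraries and 81.3, 101 and 95.6 in the Mcidas libraries. Its Mcidas libraries were mostly the highest, but the lowest of them fell just under the highest GFP library, and the difference was 0.36 (SE 0.12) (edgeR adjusted p = 0.18). With GemC1 the value for Atr was 0.03. Atrip, which brings ATR to single-stranded DNA, had 51.1 ± 4.29 CPM in GFP, 59.6 ± 1.92 CPM in GemC1 and 55.6 ± 5.1 CPM in Mcidas, and the GemC1 libraries lay above the GFP libraries (log2 difference 0.22, edgeR adjusted p = 0.238). Atrip shares 16.04% of its exon bases with Trex1 on the same strand, and reads there cannot be assigned to one of them.

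Chek1, the checkpoint kinase downstream of ATR, was at 14, 16.6 and 11.3 CPM in the GFP libraries, 11.5, 14.9 and 12.4 in the GemC1 libraries and 12.6, 13.1 and 10.9 in the Mcidas libraries. Its groups overlapped in both comparisons, and its intervals ran from -0.48 to 0.27 with GemC1 and from -0.57 to 0.18 with Mcidas on the log2 scale. Chek2, the checkpoint kinase downstream of ATM, was at 14.6, 12.3 and 15.4 CPM in the GFP libraries, 16.46, 18.3 and 17.6 in the GemC1 libraries and 13.8, 18.1 and 19.96 in the Mcidas libraries. All GemC1 libraries exceeded all GFP libraries for Chek2, whereas Mcidas replicate 1 lay among the GFP values. The log2 differences of Chek2 were 0.31 and 0.29, with edgeR adjusted p-values of 0.31 and 0.52. Prkdc codes for the catalytic subunit of DNA-PK, which binds broken ends in end joining, and was at 29.8, 39.4 and 35.4 CPM in the GFP libraries, 32.7, 30.3 and 31.9 in the GemC1 libraries and 30.3, 28.8 and 29 in the Mcidas libraries. The groups overlapped, with a log2 difference of -0.14 with GemC1 and -0.25 with Mcidas (edgeR adjusted p = 0.403 for Mcidas).

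The checkpoint clamp of RAD9, HUS1 and RAD1, its loader RAD17 and the ATR activator TOPBP1 gave 5 genes, none of which passed the threshold in edgeR or had an unadjusted p under 0.05. Their log2 differences ran from -0.15 for Hus1 to 0.25 for Rad1 with GemC1, and from -0.29 for Hus1 to 0.21 for Rad17 with Mcidas. Rad17 was the gene of this block whose Mcidas libraries all lay above the GFP libraries (31.8 ± 4.79 against 27.4 ± 0.686 CPM, edgeR adjusted p = 0.553), and Mcidas replicate 1 was the highest of them. For all 5 genes the 95% interval with GemC1 stayed within 1.5-fold. Topbp1 had 119 ± 20.4 CPM in GFP, 113 ± 10.4 in GemC1 and 117 ± 11 in Mcidas, the most counts of the 5.

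Among the 5 mediators on chromatin, H2afx passed the threshold in both comparisons. In this block 2 genes were higher at an unadjusted p under 0.05 with GemC1 (H2afx and Rnf168) and 1 with Mcidas (H2afx). H2afx is a single-exon histone gene at chromosome 9, 44334694 to 44336077, plus strand, and the phosphorylated form of its protein is the usual mark of a double-strand break. Its level was 166, 133 and 152 CPM in the GFP libraries, 241, 218 and 208 in the GemC1 libraries and 179, 221 and 262 in the Mcidas libraries. Each library with a factor stood above the highest GFP library, although Mcidas replicate 1 did so by a small margin. The log2 difference was 0.56 (SE 0.13) with GemC1 (edgeR adjusted p = 0.0243) and 0.55 (SE 0.13) with Mcidas (edgeR adjusted p = 0.0267), and the GemC1 and Mcidas groups overlapped (difference 0.01, interval -0.27 to 0.29). These calls were lost in 4 of the 16 alternatives with GemC1 and in 6 with Mcidas. With GemC1 the adjusted p rose to 0.0802 without GemC1 replicate 1, 0.0513 without GemC1 replicate 2, 0.111 without GFP replicate 2 and 0.09 without GFP replicate 3, and the log2 value stayed between 0.49 and 0.64 over the alternatives. With Mcidas it rose to 0.0983 without Mcidas replicate 2, 0.134 without Mcidas replicate 3, 0.13 without GFP replicate 2, 0.0847 without GFP replicate 3 and 0.0522 in a fit on only the groups compared, at log2 values between 0.41 and 0.69. An antisense gene, Gm44335, shares 10.19% of the exon bases of H2afx. It was listed at between 0.129 and 0.15 of the level of H2afx in every library, and since the libraries carry no strand, reads in the shared stretch cannot be assigned to one of this pair.

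Rnf168, the ubiquitin ligase that spreads the mark on histones around a break, lies at chromosome 16, 32277459 to 32301434, plus strand and was at 31.2, 29.2 and 22 CPM in the GFP libraries, 31.8, 46.4 and 53.7 in the GemC1 libraries and 27.3, 22.9 and 26.8 in the Mcidas libraries. The GemC1 libraries were higher than all others, but GemC1 replicate 1 exceeded the highest GFP library by less than 1 CPM, and the spread in GemC1 was wide. The log2 difference from GFP was 0.68 (SE 0.18) (edgeR adjusted p = 0.053), just outside the threshold. It was called by DESeq2 (adjusted p = 0.00647), without the low-count filter (0.0101), with a stricter filter (0.0455) and without GemC1 replicate 1 (0.0107), and not in the other 12 alternatives, where the adjusted p reached 0.226. Mcidas gave -0.10 for Rnf168. Mdc1, the protein that binds phosphorylated H2AX, was at 31.6, 41.4 and 30.1 CPM in the GFP libraries, 21.9, 30.9 and 33.8 in the GemC1 libraries and 27.7, 33.2 and 22.6 in the Mcidas libraries. Its groups overlapped, with log2 differences of -0.25 and -0.30 and intervals of -0.65 to 0.15 and -0.70 to 0.10. Trp53bp1 codes for 53BP1, which shields broken ends from resection. It was at 434, 492 and 504 CPM in the GFP libraries, 433, 384 and 489.7 in the GemC1 libraries and 503, 453 and 479 in the Mcidas libraries, the groups overlapped, and its log2 differences were -0.13 and 0.01. Rnf8, the ligase that acts before RNF168, differed by 0.02 and 0.01, with intervals of -0.18 to 0.23 and -0.20 to 0.21.

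**Figure D3:**
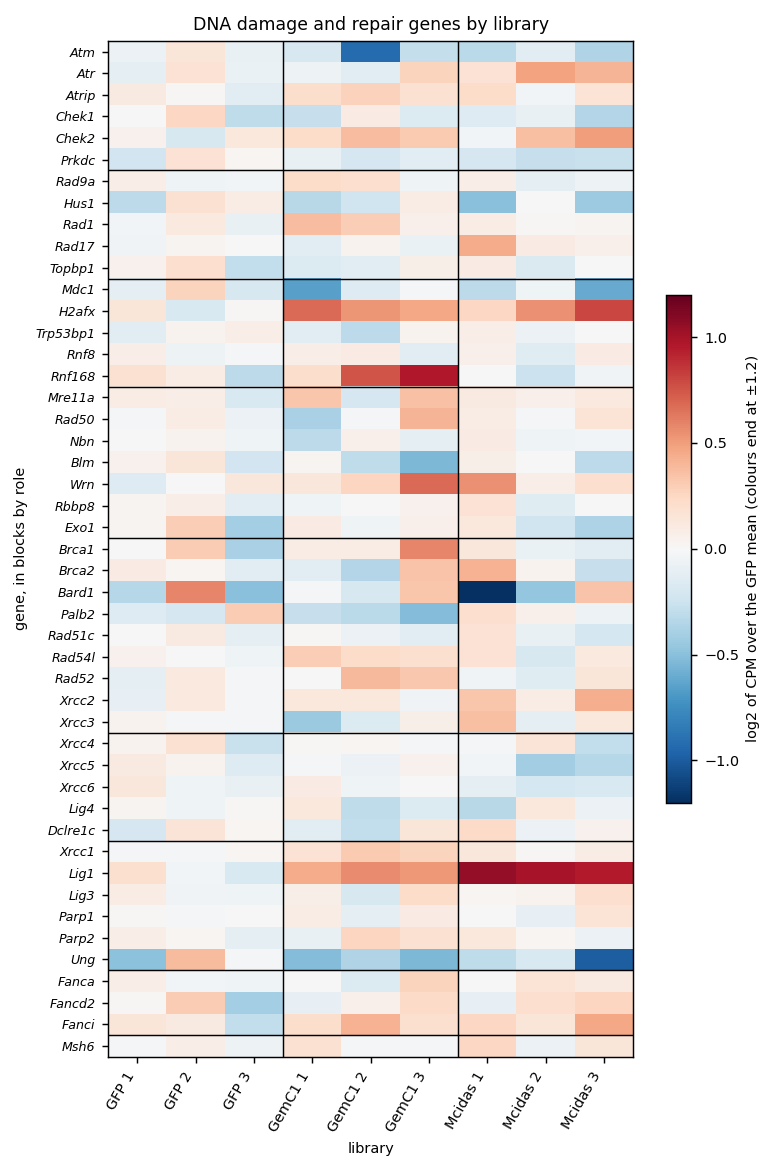
Log2 of each library's CPM over the GFP mean (colour) for the 47 genes (vertical axis, in blocks by role from the damage kinases at the top to Msh6 at the bottom) in the 9 libraries (horizontal axis). Lig1 is red in all 6 libraries with a factor, H2afx is red in all 6 as well, Rnf168 is darkest in GemC1 replicates 2 and 3, and Bard1 and Ung differ between libraries of 1 group.

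The MRE11, RAD50 and NBN complex, which holds and trims broken ends, and the resection genes Rbbp8, Exo1, Blm and Wrn gave 7 genes with no call in edgeR and none with an unadjusted p under 0.05. Mre11a differed by 0.18 with GemC1 and 0.09 with Mcidas, Rad50 by 0.04 and 0.08, and Nbn by -0.12 and 0.01. Wrn, a helicase, had the highest values of the block, 0.38 (SE 0.18) with GemC1 (edgeR adjusted p = 0.271) and 0.29 (SE 0.18) with Mcidas (edgeR adjusted p = 0.596). Every GemC1 library exceeded every GFP library for Wrn, though by very little in the closest pair, at 14.14 against 14.12 CPM. Blm, the Bloom syndrome helicase, had the lowest value with GemC1, -0.25, and Exo1, a nuclease, the lowest with Mcidas, -0.14. Rbbp8, which codes for the resection factor CtIP, was at 35.5 ± 2.6, 35.6 ± 1.21 and 36 ± 3.93 CPM in GFP, GemC1 and Mcidas.

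Of the 9 homologous recombination genes none passed the threshold in edgeR, and 1 in each comparison was higher at an unadjusted p under 0.05 (Rad54l with GemC1 and Xrcc2 with Mcidas). Brca1, which directs repair towards recombination, was at 39, 47.8 and 29.7 CPM in the GFP libraries, 41.2, 41.4 and 58.1 in the GemC1 libraries and 42.6, 36.8 and 35.7 in the Mcidas libraries. Its GFP libraries alone spanned the range of most of the others, and the log2 differences were 0.27 (SE 0.18) and -0.02 (SE 0.18). Brca2, a core gene of homologous recombination, was at 28.9, 27.4 and 24.5 CPM in the GFP libraries, 24.5, 21.1 and 34.2 in the GemC1 libraries and 35.9, 27.7 and 22.2 in the Mcidas libraries. The groups overlapped and the values were -0.02 and 0.09. Palb2, which links BRCA1 to BRCA2, was at 9.91, 9.6 and 13.6 CPM in the GFP libraries, 9.1, 8.81 and 7.69 in the GemC1 libraries and 12.7, 11.5 and 10.6 in the Mcidas libraries. All GemC1 libraries lay below all GFP libraries, with a log2 difference of -0.37 (SE 0.18) (edgeR adjusted p = 0.275), whereas Mcidas gave 0.07. Bard1 was at 3.06, 5.82 and 2.73 CPM in the GFP libraries, 3.84, 3.39 and 4.87 in the GemC1 libraries and 1.41, 2.8 and 4.89 in the Mcidas libraries. Libraries of the GFP group, and those of the Mcidas group, differed more than 2-fold from each other for Bard1, and its interval with Mcidas ran from -1.26 to 0.53, so nothing could be said of its direction. Rad54l, a motor protein of strand exchange, had 83.3 ± 3.11 CPM in GFP and 98.1 ± 3.62 CPM in GemC1 without overlap (log2 difference 0.23 (SE 0.10), edgeR adjusted p = 0.206), and 85.8 ± 11.2 CPM in Mcidas. Rad51c, Rad52, Xrcc2 and Xrcc3 ran from -0.16 for Xrcc3 to 0.25 for Rad52 with GemC1, and from -0.03 for Rad51c to 0.29 for Xrcc2 with Mcidas.

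End joining was represented by Xrcc5 and Xrcc6, which code for the Ku proteins that cap a broken end, by Xrcc4 and Lig4, which seal it, and by Dclre1c, the nuclease Artemis. None of these 5 passed the threshold in edgeR, 1 had an unadjusted p under 0.05 (Xrcc5, lower with Mcidas), and in both comparisons all 5 intervals stayed within 1.5-fold. Xrcc5 had 55.4 ± 5.1 CPM in GFP, 55.1 ± 2.27 in GemC1 and 46.3 ± 6.79 in Mcidas, a log2 difference of -0.26 (SE 0.12) with Mcidas (edgeR adjusted p = 0.374). Its partner Xrcc6 gave -0.17 (SE 0.09) with Mcidas, all Mcidas libraries lying below all GFP libraries (edgeR adjusted p = 0.526). With GemC1 the 2 Ku genes differed from GFP by -0.01 and 0.02. Xrcc4 gave 0.01 and -0.04, Lig4 -0.10 and -0.08, and Dclre1c -0.08 and 0.08, with GemC1 first.

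Lig1 was the 1 gene called among the 6 of single-strand break and base excision repair. In this block 2 genes were higher at an unadjusted p under 0.05 with GemC1 (Lig1 and Xrcc1) and 1 with Mcidas (Lig1). The other ligase of this block, Lig3, which works with XRCC1 and in mitochondria, was at 142 ± 7.59 CPM in GFP, 147 ± 20.8 in GemC1 and 152 ± 10.5 in Mcidas, with log2 differences of 0.04 (SE 0.10) and 0.09 (SE 0.10). Xrcc1, the scaffold of this pathway, was at 63.2, 62.9 and 64.8 CPM in the GFP libraries, 71.9, 78.8 and 76.8 in the GemC1 libraries and 69.8, 64.5 and 67.5 in the Mcidas libraries. The GemC1 libraries lay above all others, with a log2 difference of 0.25 (SE 0.08) (edgeR adjusted p = 0.0926), which DESeq2 called (adjusted p = 0.0261) and none of the other 15 alternatives did. Parp1 was at 340.3, 334 and 335 CPM in the GFP libraries, 359, 313 and 361 in the GemC1 libraries and 336, 313 and 376 in the Mcidas libraries. Its GFP libraries lay closer together than those of any other of the 47 genes, and the differences were 0.03 (SE 0.09) and 0.02 (SE 0.09). Parp2, its relative, gave 0.12 and 0.03. Ung, the glycosylase that removes uracil from DNA, was at 7, 12.8 and 9.66 CPM in the GFP libraries, 6.84, 7.65 and 6.74 in the GemC1 libraries and 7.95, 8.68 and 4.94 in the Mcidas libraries. It had the lowest value of the 47 genes in both comparisons, -0.47 (SE 0.25) and -0.45 (SE 0.25), but its GFP libraries spanned from 7 to 12.8 CPM, its groups overlapped and the edgeR adjusted p-values were 0.326 and 0.546.

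The Fanconi anaemia pathway repairs crosslinks between strands. Its genes Fanca, Fancd2 and Fanci lay above 0 in both comparisons without a call, with Fanca at 0.05 and 0.10, Fancd2 at 0.07 and 0.12, and Fanci at 0.28 (SE 0.13) and 0.29 (SE 0.13) (edgeR adjusted p = 0.281 and 0.391). Every GemC1 library exceeded every GFP library for Fanci. Of these genes Fanci alone had an unadjusted p under 0.05 (edgeR), and with Mcidas only. Fanci shares 15.95% of its exon bases with Polg on the opposite strand. Msh6, a subunit of the mismatch sensor, had 115 ± 5.74, 119 ± 9.62 and 125 ± 14.1 CPM in GFP, GemC1 and Mcidas, and its differences were 0.05 (SE 0.10) and 0.12 (SE 0.10).

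GemC1 and Mcidas were also compared with each other, and no gene of the 47 passed the threshold. Over all genes tested 0.0153% were called higher and 0.0358% lower (0.0511% in all), so few calls were made anywhere. At an unadjusted p under 0.05, 2 of the 47 were higher with GemC1 and 4 lower, against 13% of all genes in either direction. Rnf168 was higher with GemC1 by 0.78 (SE 0.18) (edgeR adjusted p = 0.149; DESeq2 adjusted p = 0.00624), and DESeq2 called this gene and Lig1 only. The groups did not overlap for 5 of the 47 genes with GemC1 higher, against 9.07% of all genes, and for 3 with GemC1 lower, against 7.64%. Those 3 were Lig1, Palb2 (log2 difference -0.44, edgeR adjusted p = 0.319) and Rad17 (-0.27, edgeR adjusted p = 0.382). The deposited tables bear a year code, which is 1 value for Mcidas and another for both other groups. What the code marks is not stated, and it cannot be told apart from the Mcidas group.

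Libraries of 1 group also differed from each other across the list. GFP replicate 3 was the lowest GFP library for 28 of the 47 genes and GFP replicate 2 the highest for 24. Among the Mcidas libraries replicate 1 was the highest for 26 genes and replicate 2 the lowest for 24, whereas the GemC1 libraries shared these places more evenly. The median SD of log2 CPM within a group was 0.13 in GFP, 0.15 in Mcidas and 0.16 in GemC1. Parp1 varied least within GFP (SD 0.02) and Bard1 most (SD 0.59 in GFP and 0.90 in Mcidas). Without GFP replicate 3 the median log2 fold change of the 47 genes with GemC1 was -0.02 in place of 0.03.

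**Figure D4:**
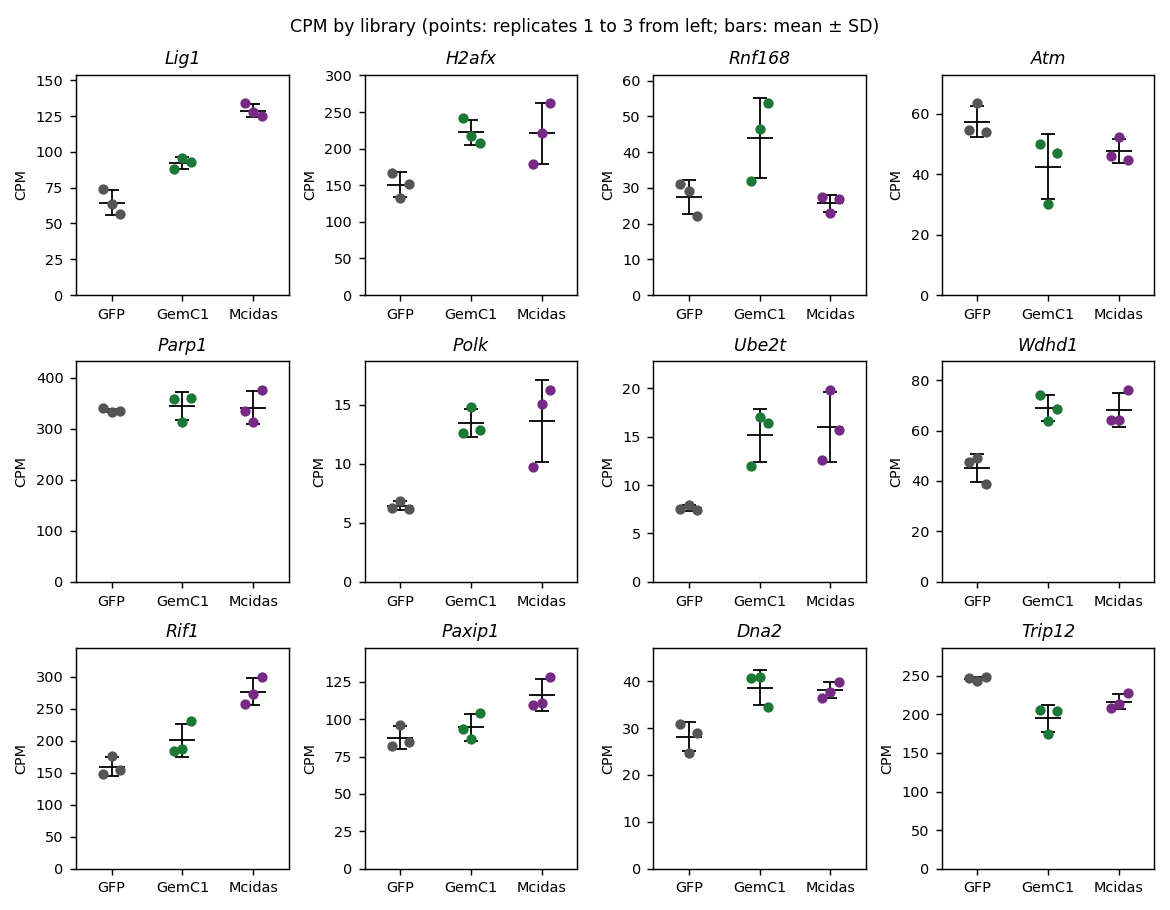
CPM in each library (vertical axes from 0) for Lig1, H2afx, Rnf168, Atm and Parp1 of the 47 genes and for the 7 other repair genes that passed the threshold. Points are libraries, replicates 1 to 3 from left to right in each group, and bars are the mean ± SD. Lig1 and Rif1 are lowest in GFP and highest in Mcidas, and Polk, Ube2t and Wdhd1 stand at like levels with both factors.

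A further list of 135 repair and checkpoint genes outside the 47 was examined beside them, and 132 of these were tested. With GemC1, 4 of the 132 rose and 1 fell, beside 3.86% of all genes called higher and 1.32% lower. With Mcidas, 5 rose and none fell, beside 4.03% of all genes higher and 0.327% lower. The counts called higher thus lie near the shares of all genes. The median log2 fold change was 0.05 with GemC1 and 0.00 with Mcidas. At an unadjusted p under 0.05 there were 20 higher and 6 lower with GemC1 of the 132 genes, beside 19.5% of all genes in either direction, and 12 higher and 8 lower with Mcidas, beside 12.6%. DESeq2 called none lower with Mcidas. Polk, a DNA polymerase that copies past damaged bases, was at 6.29, 6.88 and 6.15 CPM in GFP, 12.6, 14.8 and 12.9 in GemC1 and 9.7, 15 and 16.2 in Mcidas, a log2 difference of 1.06 (SE 0.20) with GemC1 and 1.08 (SE 0.20) with Mcidas (edgeR adjusted p = 0.007 and 0.005). Ube2t, the enzyme that works with the Fanconi complex to tag FANCD2 and FANCI, was at 7.53, 7.93 and 7.41 CPM in GFP, 11.9, 17 and 16.4 in GemC1 and 12.5, 19.8 and 15.7 in Mcidas, a difference of 0.99 (SE 0.19) and 1.07 (SE 0.19) (edgeR adjusted p = 0.0103 and 0.00503). For both genes the lowest library with a factor exceeded the highest GFP library. Ube2t thus rose about 2-fold while its substrates' genes Fancd2 and Fanci gave no call. Its call with GemC1 was lost without GFP replicate 3 (adjusted p = 0.0537).

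Wdhd1, a replication factor that ties the helicase to DNA polymerase, was at 47.7, 48.9 and 38.9 CPM in GFP, 74.1, 63.8 and 68.4 in GemC1 and 64.1, 64.2 and 76 in Mcidas and differed by 0.61 and 0.59 (edgeR adjusted p = 0.00751 and 0.0071). Rif1, which acts with 53BP1 and also sets replication timing, was at 148, 176 and 154 CPM in GFP, 184, 188 and 230.1 in GemC1 and 257, 272 and 299.5 in Mcidas. The order of its groups was that of Lig1, with no overlap, and the log2 difference was 0.33 with GemC1 (edgeR adjusted p = 0.093) and 0.79 with Mcidas (0.000429). Trp53bp1, whose protein recruits RIF1, stood at -0.13 and 0.01. Paxip1, a mediator of break signalling, rose with Mcidas (0.41, edgeR adjusted p = 0.038) and stood at 0.11 with GemC1, and the direct difference of GemC1 from Mcidas was not called (-0.29, edgeR adjusted p = 0.25). Dna2, a nuclease of resection and replication, rose with GemC1 (0.46, edgeR adjusted p = 0.0417) and stood at 0.43 with Mcidas (edgeR adjusted p = 0.0597). Trip12, a ubiquitin ligase that limits RNF168, fell with GemC1 (-0.34, edgeR adjusted p = 0.0319), at 246, 244 and 248 CPM in GFP, 205, 175 and 205 in GemC1 and 208, 213 and 227 in Mcidas. The calls of Paxip1, Dna2 and Trip12 were lost in 6, 8 and 6 of the 16 alternatives. For Paxip1 these included leaving out GemC1 replicate 1, Mcidas replicates 2 or 3, or GFP replicates 1 or 3 (adjusted p up to 0.186). For Dna2 they included leaving out GemC1 replicates 1 or 2, Mcidas replicates 2 or 3, or GFP replicates 2 or 3 (up to 0.172), and for Trip12 leaving out GemC1 replicate 2, Mcidas replicate 2 or any GFP library (up to 0.123). GemC1 against Mcidas gave no call in this list in edgeR, 13 genes at an unadjusted p under 0.05, and 1 call in DESeq2, Rif1, lower with GemC1.

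**Figure D5:**
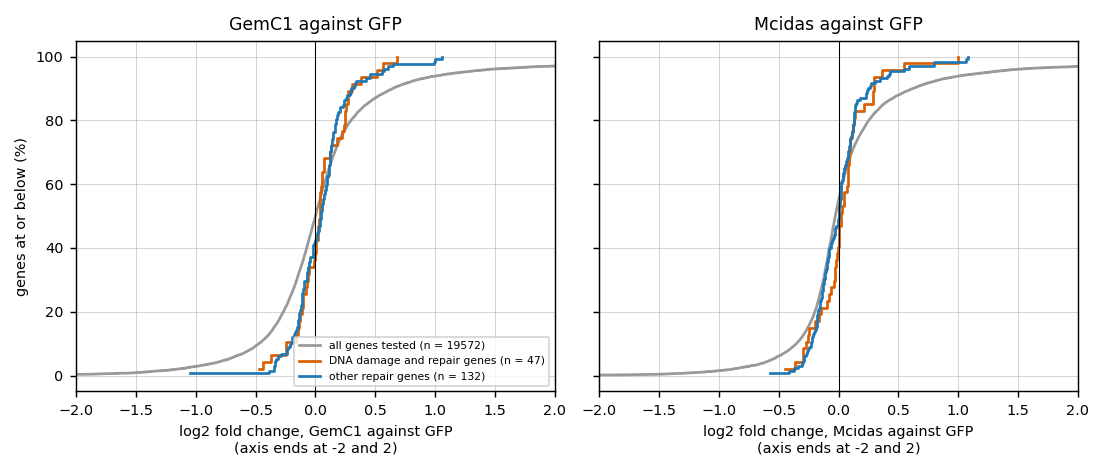
Share of genes (vertical axis, percent) with a log2 fold change at or below the value on the horizontal axis, for GemC1 (left) and Mcidas (right) against GFP. Lines stand for the 47 damage and repair genes, the 132 tested genes of the further repair list and all 19572 genes tested, and the medians of the 47 genes were 0.03 and 0.02.

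The genes that signal from p53 were set beside the 47. Trp53 was at 118, 106 and 103 CPM in GFP, 118, 120.2 and 124 in GemC1 and 108, 99.8 and 109.5 in Mcidas, with log2 differences of 0.15 and -0.04 and no call (edgeR adjusted p = 0.337 and 0.902). Cdkn1a was at 4.23, 3.12 and 2.58 CPM in GFP, 50.4, 33.5 and 46.3 in GemC1 and 37.1, 56.6 and 65.3 in Mcidas, a log2 difference of 3.71 (SE 0.25) and 3.998 (SE 0.25) (edgeR adjusted p = 3.18e-06 and 1.45e-06). Pidd1, a p53 target that activates a caspase, rose by 2.53 and 2.90 (edgeR adjusted p = 9.49e-07 and 3.06e-07). Mdm2, the p53 target that restrains p53, gave -0.13 and 0.10 without a call. Cdkn1a and Pidd1 thus changed by more than any of the 47 genes, whose largest value was that of Lig1, 0.996.

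Markers of replication and of cell types were also examined beside these values. Of 41 S phase genes 4 rose with GemC1 (Slbp, Cdt1, E2f7 and Dtl) and 5 with Mcidas (the same 4 and Mcm3). With GemC1 33 of the 41 log2 values were above 0, the median was 0.14 and none was lower at an unadjusted p under 0.05. With Mcidas 22 were below 0, the median was -0.05 and 5 were lower at an unadjusted p under 0.05. The summed level of the list was 2565 to 3055 CPM in GFP, 3254 to 3355 CPM in GemC1 and 3080 to 3381 CPM in Mcidas. Cdt1, the licensing factor that geminin binds, was at 29.7, 27.9 and 18.3 CPM in GFP, 66.5, 66.5 and 72.4 in GemC1 and 142, 133 and 155 in Mcidas, in the same order of groups as Lig1, and was lower with GemC1 than with Mcidas (-1.06, edgeR adjusted p = 0.0234). Gmnn (0.19 and -0.16), Mcm2 (0.14 and 0.26), Pcna (0.22 and 0.03) and Mki67 (-0.17 and -0.16) gave no call. Of 26 genes of the G2 and M phases 1 rose with GemC1 (Cdk1) and none with Mcidas. The part of these cell cycle genes in the values of Lig1 and H2afx was not tested.

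All 18 motile cilium genes rose with each factor, from 69.7 to 75.7 CPM in sum in GFP to 612 to 722 CPM in GemC1 and 580.5 to 1244 CPM in Mcidas. Microglial genes, of which 17 of 18 were tested, rose in 10 cases with GemC1 and in 2 with Mcidas (P2ry12 and C1qb), and their sum was 34.3 to 49.6 CPM in GFP, 83.9 to 120.1 CPM in GemC1 and 51.1 to 75.4 CPM in Mcidas. No gene of the microglial list was at 0 in every library. Their part in the values of H2afx, Rnf168 and Xrcc1 was not tested. Of 14 excitatory neuron genes 3 fell with GemC1, Dcx and Myt1l among them, and 1 with Mcidas (Slc17a6). With GemC1 13 log2 values were below 0 and 1 above, the median was -0.275 and 8 were lower at an unadjusted p under 0.05. With Mcidas 12 were below 0 and 2 above, the median was -0.17 and 4 were lower. The sum of this list was 6279 to 7288 CPM in GFP, 5129 to 5629 CPM in GemC1 and 5508 to 6256 CPM in Mcidas. The part of this neuronal shift in the values of the damage and repair genes was not tested. Of 15 radial glia genes none was called with GemC1, where 12 log2 values were above 0, the median was 0.26 and, at an unadjusted p under 0.05, 4 were higher and 1 lower. With Mcidas the median was 0.05 and Hes5 fell. Neurog2 fell with GemC1 among 8 genes of intermediate progenitors, whose median was -0.10, and 2 were lower at an unadjusted p under 0.05 (edgeR). With Mcidas none of the 8 was called, 7 log2 values were below 0 and 1 above, and the median was -0.24. At an unadjusted p under 0.05 (edgeR), 4 were lower and 1 higher with Mcidas. No interneuron, endothelial or erythroid gene that could be tested passed the threshold in edgeR. At an unadjusted p under 0.05 there were 1 endothelial and 1 erythroid gene, both lower with GemC1. Those tested were 10 of 10 interneuron, 8 of 12 endothelial and pericyte and 4 of 7 erythroid genes. Their median SE with GemC1 was 0.347, 0.968 and 1.121, against 0.184 for all genes tested. The endothelial and pericyte median was -1.42 with GemC1 and 0.03 with Mcidas. At this precision the absence of a call does not show that these levels stayed the same.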

How the data were processed

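RNA of GFP-positive cells was amplified with SMART-Seq v4 and made into Nextera XT libraries, per the labels' protocols; these kits do not mark the strand. The authors deposited raw read counts per Ensembl gene, 1 table a library. The tools used upstream were HTSeq 0.5.3, STAR 2.5.2b and DESeq2 1.8.1 with the build mm10, per the submitters' processing notes. The annotation release and strand setting were not given in the sources used here. Of 53379 identifiers 53274 matched GENCODE M21 (GRCm38), and the other 105 took at most 0.068% of a library's counts.

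From these counts edgeR 4.0.16 (filterByExpr with minimum count 10 and minimum total 15, TMM, robust glmQLFit, glmQLFTest, two-sided) fitted all 9 libraries with group as the only term. Genes passed the threshold at an adjusted p (Benjamini-Hochberg, over the 19572 genes tested) under 0.05. CPM values were computed here from the deposited counts with TMM factors, and the script was tested on simulated data. SE is the standard error of the log2 fold change. No 2 replicates agreed within sampling noise (chi-square 13.88 to 24.95 per degree of freedom). This cannot show that they came from separate embryos or litters. Each library was counted as 1 sample.

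The 47 genes, the further lists and the rule for named genes were chosen with earlier results of these data known. The rule gives every library's value for called genes, for the 3 highest and 3 lowest log2 values against GFP, and for Atm, Atr, Chek1, Chek2, H2afx, Mdc1, Trp53bp1, Prkdc, Brca1, Brca2 and Parp1; Xrcc1 was added after its values were seen. Every called gene of the further repair list was named. Of the 3 excitatory neuron genes called with GemC1, 1 is not reported here. The alternatives were DESeq2 1.42.0, its size factors within edgeR, the low-count filter left out or made stricter (1 CPM in 3 libraries), a block for the replicate number, a fit restricted to the groups compared, removal of mitochondrial, globin and transgene counts, and fits that each omit 1 library.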

Additional observations from a re-analysis of the deposited data

How the results depend on the processing

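Of 2256 values of the 47 genes over the 16 alternatives, 2237 kept the call, 10 lost it, 9 gained it and none that was called changed sign. Of the values that kept the call, 133 had no call and changed sign, in 38 genes. The cause of the changes below was not tested. DESeq2 called 4 of the 47 genes higher with GemC1 against GFP, with 9 other repair genes higher and 2 lower, and 1159 genes higher and 658 lower over all; 112 genes were lower with Mcidas. In GemC1 against Mcidas it called 1 of the 47 higher and 1 lower, 1 other repair gene lower, and 195 genes higher and 304 lower over all. Without the low-count filter GemC1 gave 3 other repair genes lower and 557 genes lower over all, Mcidas 123 lower, and GemC1 against Mcidas 1 of the 47 higher and 1 lower, 1 other repair gene lower, and 66 higher and 129 lower over all. With the replicate block 147 genes were lower with GemC1, 1 of the 47 was higher with Mcidas (H2afx was lost at adjusted p = 0.0568) and 3 genes were lower in GemC1 against Mcidas. Libraries with equal replicate numbers showed no pairing by this measure: correlations of their deviations ran from -0.074 to 0.046, and not every library correlated best with its own number. A small shared effect could be missed here, and the labels do not say whether equal numbers share a litter or day. A fit on only the groups compared gave 0 other repair genes lower with GemC1, 1 of the 47 higher with Mcidas, and 2 genes lower in GemC1 against Mcidas. Without mitochondrial, globin and transgene counts 3 genes were lower in GemC1 against Mcidas.

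Leaving out each library in turn gave, for GemC1 against GFP, 1 to 2 of the 47 genes higher, 2 to 6 other repair genes higher and 0 to 2 lower, 443 to 877 genes higher and 32 to 267 lower over all, and a median of the 47 genes from -0.023 to 0.07. The fewest calls with GemC1 came without GFP replicate 3. For Mcidas against GFP it gave 1 to 2 of the 47 genes higher and 29 to 99 genes lower over all, the fewest without Mcidas replicate 2, and for GemC1 against Mcidas 3 to 5 genes higher and 1 to 8 lower. With 1 library left out, an arm of 2 libraries shares its spread with the other groups.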
